A study of Mus musculus with 2 samples.

Results

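The MHC class I heavy chain genes H2-K1, H2-D1, H2-Q1, H2-Q7, H2-Q10, H2-M3, H2-T3, H2-T22 and H2-T23 and the light chain gene B2m were examined in splenic Treg cells after islet transplantation. These 10 genes were taken by symbol from the 20938 genes of the deposited tables, and all 10 were found. RNA-seq gave 1 control library and 1 cKO library of cells isolated from spleens on day 7 after transplantation, with BALB/c mice as islet donors in the study's model and recipients made diabetic with streptozotocin. The cKO recipients were Foxp3-Mettl14f/+ mice, in which Cre driven by the Foxp3 promoter deletes 1 floxed allele of Mettl14, an RNA methyltransferase subunit, in Foxp3-expressing cells of a C57BL/6J background. The control recipients were littermates, which the labels call wild type and the study elsewhere calls Mettl14f/f, and neither group received tolerance-inducing antibodies according to the study. The labels give the cKO genotype as a knockdown of Foxp3, and ages and the number of mice behind each library are not given in the sources used here. Cells were enriched as CD4+CD25+ with a magnetic kit, so both libraries are bulk samples.

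Class I molecules consist of a membrane heavy chain, the light chain beta-2-microglobulin and a short peptide, and nearly all nucleated cells carry the classical forms H2-K and H2-D, which show cytosolic peptides to CD8+ T cells and are read by NK cell receptors. The nonclassical Q, T and M genes vary less between individuals and have narrower duties, such as the display of signal peptides to NK receptors by H2-T23 (Qa-1) and of formylated bacterial peptides by H2-M3. Classical class I genes are induced by interferons and NF-kappaB through short promoter elements, and the locus is rich in near-identical copies.

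The sequences below show the stretches where such elements lie in the members. They are 60-base windows upstream of the RefSeq start sites on GRCm38.p6, read 5′ to 3′ on each gene's own strand; 9 of the 10 members had a promoter in the table used, and H2-Q1 had none. Capitals mark the NF-kappaB consensus, AANNGAAA (the core of an interferon response element) and CCAAT, on either strand, so that TTTCACTT is AANNGAAA read on the opposite strand and ATTGG is CCAAT. In H2-M3 the ATTGG runs into the NF-kappaB match. The windows lie at chr17:34000412-34000471 on the minus strand for H2-K1, chr17:35262910-35262969 on the plus strand for H2-D1, chr17:35439008-35439067 on the plus strand for H2-Q7, chr17:35469900-35469959 on the plus strand for H2-Q10, chr17:37270099-37270158 on the plus strand for H2-M3, chr17:36190252-36190311 on the minus strand for H2-T3, chr17:36042908-36042967 on the minus strand for H2-T22, chr17:36032800-36032859 on the minus strand for H2-T23 and chr2:122147516-122147575 on the plus strand for B2m.
H2-K1: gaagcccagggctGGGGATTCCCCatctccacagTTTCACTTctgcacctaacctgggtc
H2-D1: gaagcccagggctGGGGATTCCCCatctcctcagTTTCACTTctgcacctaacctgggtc
H2-Q7: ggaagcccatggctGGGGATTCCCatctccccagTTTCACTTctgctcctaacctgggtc
H2-Q10: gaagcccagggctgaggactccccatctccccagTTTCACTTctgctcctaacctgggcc
H2-M3: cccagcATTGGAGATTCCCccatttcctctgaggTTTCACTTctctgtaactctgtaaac
H2-T3: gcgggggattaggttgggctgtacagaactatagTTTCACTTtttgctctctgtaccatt
H2-T22: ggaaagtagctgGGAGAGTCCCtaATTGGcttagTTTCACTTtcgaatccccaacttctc
H2-T23: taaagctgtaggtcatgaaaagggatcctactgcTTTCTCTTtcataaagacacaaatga
B2m: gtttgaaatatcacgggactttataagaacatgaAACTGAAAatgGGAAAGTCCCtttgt

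In the 300-base promoters, which run from 250 bases before to 50 after the start, the NF-kappaB consensus was found in 6 of the 9 members, H2-K1, H2-D1, H2-Q7, H2-M3, H2-T22 and B2m, and in 2779 of 32851 promoters of all genes (8.46%). AANNGAAA was in 9 of 9 members and in 23.9% of all promoters, and CCAAT was in 7 of 9, all but H2-Q10 and H2-T3, and in 37.4% of all promoters. H2-Q10 follows H2-D1 through most of the window but its letters are changed where the NF-kappaB match of H2-D1 lies. The motifs were chosen after the promoters had been read, and a match is a description of letters.

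Each deposited level is a whole number of reads divided by 1 size factor per library, and the reads were recovered by dividing by the level of a single read, 0.967 for the control and 1.14 for the cKO library. The libraries held 20239325 and 18327535 reads. Changes are log2 ratios of cKO over control after adding 1 to each level, among the 16659 genes whose level averaged 1 or more, and brackets give 95% Clopper-Pearson intervals on the reads, which cover counting error only. Each genotype has 1 library and thus no replicates, so the intervals and exact binomial tests compare these 2 libraries and not the genotypes. The median change of all genes was -0.04. Mettl14 had 948 and 652 reads (log2 change -0.31) and Foxp3 1547 and 1361 (0.05). The summed deposited levels in the control and cKO libraries were 57068 and 45035 for 14 T cell core genes, 8468 and 9035 for 11 Treg genes, 8755 and 44842 for 12 B cell genes and 28342 and 62542 for 16 macrophage genes. They were 254188 and 344730 for 13 granulocyte genes and 46587 and 27286 for 12 erythroid genes. Of the granulocyte genes 2 were higher and 3 lower by 1.5-fold or more, and of the erythroid genes 1 was higher and 7 lower. Over all genes 17.2% were higher and 24.2% lower by as much. By these sums both libraries held Foxp3 and T cell RNA together with RNA of other cells. In bulk samples fewer cells of a type and less RNA per cell cannot be told apart. When the libraries were scaled so that the T cell core genes were equal, the all-gene median became 0.24 in place of -0.04, and values on that scale are to be read against 0.24. On that scale the change was -0.02 for Mettl14 and 0.33 for Foxp3.

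Of the 10 members, 3 were higher by 1.5-fold or more in the cKO library, namely H2-Q10, H2-Q7 and H2-M3, 1 was lower by as much, H2-T3, and 6 were neither, beside 17.2% of all genes higher and 24.2% lower. Among the 10693 genes with an average level of 100 or more the shares were 11.9% higher and 8.71% lower. Summed with the copy H2-Q9, which had more reads in both libraries, H2-Q7 lost its call and changed by -0.04 (-0.10 to 0.01). Over H2-Q6, H2-Q7, H2-Q8 and H2-Q9 the summed change was 0.21 (0.18 to 0.25). H2-T3 passed the filter on low levels only through its 9 reads in the control library. The median change of the members was 0.21, against -0.04 for all genes, and after T cell core scaling the medians were 0.49 and 0.24. An exact binomial test on the reads, two-sided and adjusted by Benjamini-Hochberg over 14863 genes, had an adjusted p under 0.1 for 7 of the 9 members with 10 or more reads in all, beside 71.8% of all genes tested, so most genes passed this test. Of these 7, 3 also differed by 1.5-fold or more, all higher, beside 14.8% of genes higher and 17.6% lower. When edgeR's exact test assumed a biological coefficient of variation of 0.2, H2-Q10 was the 1 member left, beside 6.26% of genes higher and 10% lower, and at 0.4 there were 0, beside 1.54% and 3.83%. At 0.4 there were also 0 members with an unadjusted p under 0.05, beside 11.2% of all genes tested. The classical genes and the light chain were within 1.5-fold between the libraries, and the differences past it lay in nonclassical genes.

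**Figure D1:**
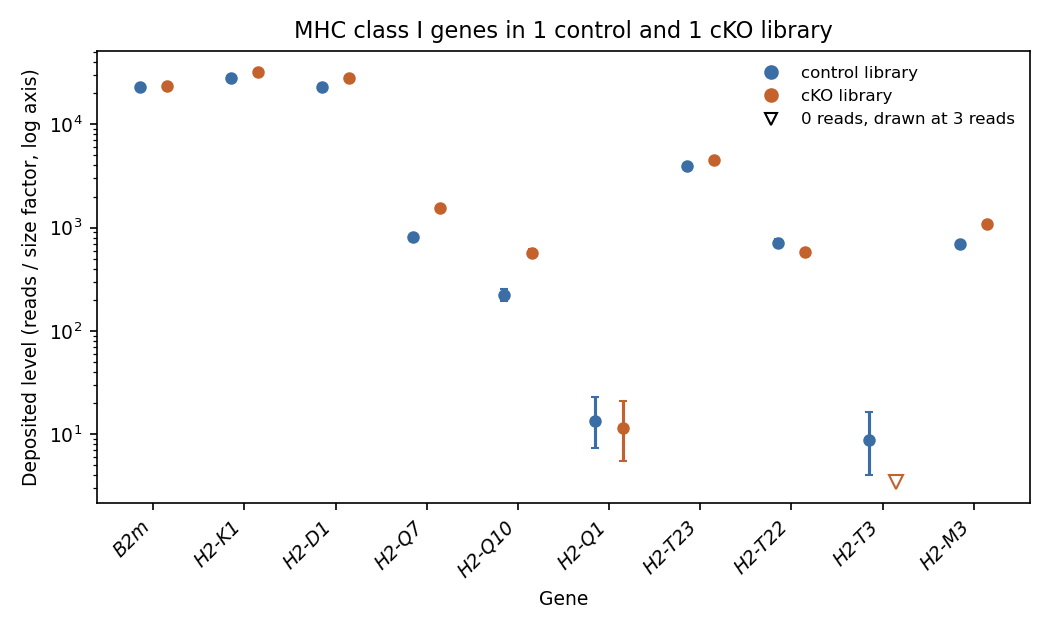
Deposited level of the 10 genes (reads divided by a size factor, log axis) in the control library (blue) and the cKO library (orange), with 95% counting intervals that are narrower than the points for abundant genes. B2m, H2-K1 and H2-D1 are the highest in both libraries, with a lowest level of 23119, and the open triangle marks H2-T3, which had 0 reads in the cKO library and is drawn at 3 reads.

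B2m, which encodes beta-2-microglobulin and lies on chr2:122147686-122153083 on the plus strand, had 23989 control and 20723 cKO reads. On the deposited scale these were levels of 23207 and 23565, a log2 change of 0.02 (-0.005 to 0.049), and its binomial adjusted p was 0.967. The sign of that change depended on scaling, with -0.07 by library totals, -0.001 by TMM and 0.31 by T cell core scaling. None of its 50-base stretches occurs in another annotated gene. The annotation used has no H2-L, H2-Q8, H2-Q9 or H2-T9, so shared stretches here and below do not count sharing with those genes.

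Among the classical heavy chains, H2-K1 (chr17:33996017-34000347, minus strand) had 29074 and 28394 reads, which gave levels of 28126 and 32289 and a log2 change of 0.20 (0.175 to 0.223). H2-D1 (chr17:35262730-35267499, plus strand) had 23898 and 24991 reads, levels of 23119 and 28419 and a change of 0.30 (0.272 to 0.323). Both intervals lay above 0 and both changes were under 1.5-fold, with H2-K1 at 0.11 and H2-D1 at 0.21 by library totals and at 0.48 and 0.58 by T cell core scaling. H2-K1 and H2-D1 differ at 93 of 1077 aligned coding bases (91.4% identity), and 6.87% of the 50-base stretches of H2-K1 and 13.9% of those of H2-D1 occur in another gene.

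The Q genes spanned the widest range among members with reads in both libraries. H2-Q10, which encodes a secreted class I heavy chain known from liver, lies on chr17:35470089-35474563 on the plus strand and had 230 control and 496 cKO reads. Its levels of 222 and 564 differed 2.53-fold, a log2 change of 1.34 (1.11 to 1.57). This was the highest change among the members on the deposited scale, and edgeR's exact test gave it an adjusted p of 0.022 with an assumed variation of 0.2 and 0.879 with 0.4. Hepatocyte markers summed to 5 control and 0 cKO reads. Of its 50-base stretches 7.73%, and of its 100-base stretches 1.93%, occur in another annotated gene.

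H2-Q7, a Qa-2 gene whose product is anchored to the membrane by a lipid, lies on chr17:35439155-35443773 on the plus strand and had 830 and 1362 reads. The levels were 803 and 1549, a 1.93-fold difference and a log2 change of 0.95 (0.82 to 1.07). Summed with its copy H2-Q9 the change was -0.04 (-0.10 to 0.01), under 1.5-fold and with an interval that includes 0. With an assumed variation of 0.2, edgeR's adjusted p was 0.15. H2-Q1 (chr17:35320405-35325099, plus strand) had 14 and 10 reads, and its change of -0.23 (-1.58 to 1.02) was not detectable at this depth and turned to 0.03 after T cell core scaling. Its closest neighbour by shared sequence, H2-Q2, had 6 and 8 reads, and the 2 genes summed changed by 0.08 (-0.92 to 1.07).

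The T genes held a member whose change was near that of all class I heavy chains summed, one that was lower and one at the limit of detection. H2-T23 (chr17:36029773-36032855, minus strand), whose product Qa-1 is the ligand of CD94-NKG2 receptors, had 4046 and 3992 reads, levels of 3914 and 4540 and a change of 0.21 (0.15 to 0.28), close to that of H2-K1. H2-T22 (chr17:36037128-36042747, minus strand), whose product carries no peptide and is recognised by gamma delta T cell receptors, had 741 and 505 reads, levels of 717 and 574 and a change of -0.32 (-0.486 to -0.155). It was the only member with an interval wholly below 0 apart from H2-T3, and after T cell core scaling its change was -0.04. H2-T3 (chr17:36185572-36190287, minus strand), which encodes the thymus leukaemia antigen, had 9 control and 0 cKO reads, so it was at least 2.55-fold lower against a floor of 3 reads per library, and the upper end of its counting interval was -0.75. Of the 177 genes with exactly 9 control reads, 100 (56.5%) were at 0 in the cKO library, so this pattern was common at that depth.

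H2-M3 (chr17:37270220-37274484, plus strand) had 714 control and 964 cKO reads. Its levels of 691 and 1096 differed 1.59-fold, a log2 change of 0.67 (0.53 to 0.81), which the library totals brought under 1.5-fold. Its sequence stands apart from the other heavy chains, with 0.576% of its 50-base stretches found in another gene. The lone other M gene with more than 12 reads in a library, H2-M2, had 75 and 120 reads and a change of 0.90 (0.48 to 1.35), and the M genes summed changed by 0.70 (0.57 to 0.83).

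**Figure D2:**
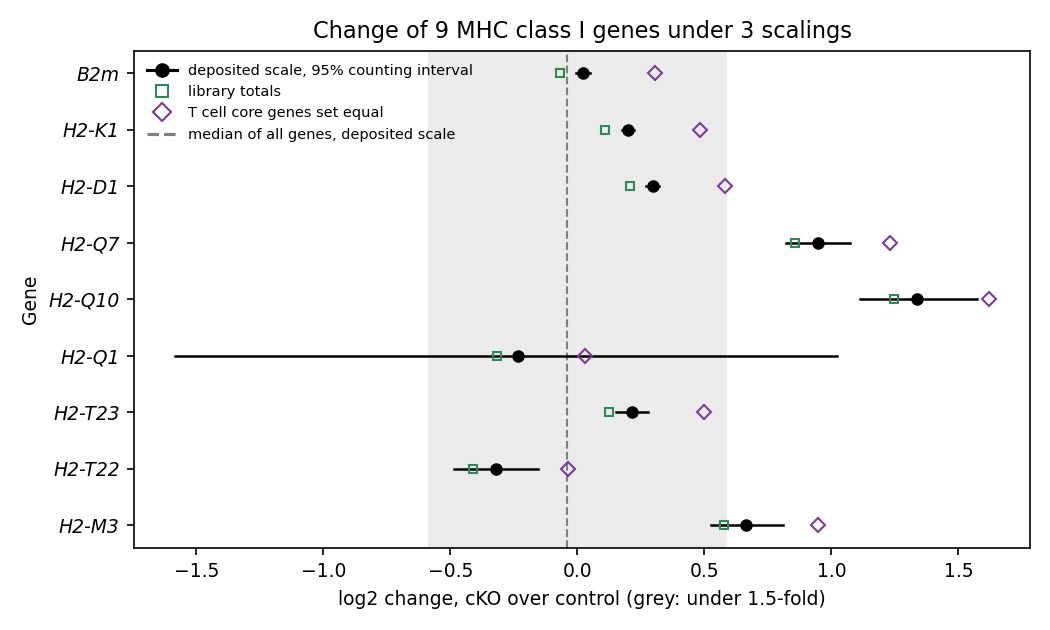
Log2 change of cKO over control for the 9 members with reads in both libraries on the deposited scale (black, lines are 95% counting intervals), by library totals (green squares) and with T cell core genes set equal (purple diamonds). H2-Q7 and H2-Q10 lie right of the grey band of under 1.5-fold on all 3 scales, H2-M3 lies at its edge by library totals, and H2-Q1 and B2m change side of 0.

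Levels of different genes were compared as reads per kilobase of the longest coding transcript, with exact Poisson 95% intervals. The order in both libraries was B2m (27894 control and 24097 cKO reads per kilobase), H2-K1 (17958 and 17538), H2-D1 (11369 and 11889), H2-T23 (2749 and 2712), H2-Q7 (545 and 894), H2-M3 (497 and 670), H2-T22 (421 and 287), H2-Q10 (116 and 249), H2-Q1 (6.92 and 4.94) and H2-T3 (3.89 and 0). The intervals of neighbours in that order overlapped for H2-Q7 and H2-M3 and for H2-Q1 and H2-T3 in the control library, and for H2-T22 and H2-Q10 in the cKO library, and the other neighbours did not overlap. H2-K1 thus stood far above every nonclassical member in both libraries, and for copies the order rests on how shared reads were placed.

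Several members have copies from which short reads cannot always be told apart, and how the authors' processing placed reads that match several genes is not given in the sources used here. Among genes whose coding sequences were compared, the closest pair is H2-T22 and H2-T10, with 35 differences in 1134 aligned coding bases (96.9% identity). Of the 50-base stretches of H2-T22, 37.5% are present in H2-T10. H2-L, H2-Q8, H2-Q9 and H2-T9 are not in the annotation used and were not compared, so the likeness of H2-Q7 to H2-Q9 was not measured. H2-Q6 and H2-Q7 differ at 45 of 978 bases (95.4%) and share an identical run of 265 bases. The 120-base coding window where H2-Q6 and H2-Q7 differ most is printed here from GENCODE vM21 transcripts on GRCm38, 5′ to 3′, with the differing bases in capitals. The window covers coding bases 61 to 180 of H2-Q6 and H2-Q7, with 14 differences, and lies nearly whole in exon 2, at chr17:35425108-35425223 in H2-Q6 and chr17:35439452-35439567 in H2-Q7, both on the plus strand, after 4 bases of exon 1.
H2-Q6: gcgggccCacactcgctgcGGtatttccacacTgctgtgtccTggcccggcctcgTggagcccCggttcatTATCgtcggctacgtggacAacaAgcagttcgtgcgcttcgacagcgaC
H2-Q7: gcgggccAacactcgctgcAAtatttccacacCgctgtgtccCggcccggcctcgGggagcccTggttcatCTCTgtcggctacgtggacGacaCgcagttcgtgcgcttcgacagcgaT

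Within the Q6 to Q9 group single genes differed in opposite directions. H2-Q7 was higher in the cKO library, as given above, and H2-Q6 had 5496 and 6307 reads and a change of 0.43 (0.38 to 0.48). H2-Q9, which the deposited tables list as a gene of its own and which has no gene of that name on the primary assembly of the annotation, had 4674 and 3178 reads and a change of -0.32 (-0.389 to -0.258). RefSeq lists Q9 among the synonyms of H2-Q7. Summed over H2-Q6, H2-Q7, H2-Q8 and H2-Q9 the reads were 11002 and 10852 and the change was 0.21 (0.18 to 0.25), close to that of H2-K1. H2-Q7 and H2-Q9 alone summed to 5504 and 4540 reads, most of them from H2-Q9. Their joint change was -0.04 (-0.10 to 0.01), with an interval that includes 0.

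The difference in H2-T22 was also smaller once its copies were added. H2-T10 had 815 and 737 reads and a change of 0.09 (-0.06 to 0.23), and H2-T9 had 1514 and 1497 reads and a change of 0.22 (0.11 to 0.32). H2-T22 and H2-T10 together changed by -0.09 (-0.20 to 0.02), and with H2-T9 the sum changed by 0.07 (-0.01 to 0.14). Both of these intervals included 0. H2-L, listed as a further gene of the K and D group, had 316 and 335 reads and a change of 0.32 (0.09 to 0.54), and H2-K1, H2-D1 and H2-L summed changed by 0.24 (0.23 to 0.26). H2-L, H2-Q8, H2-Q9 and H2-T9 are the 4 listed class I genes with no place in that annotation. H2-Q10, H2-M3, H2-T3, H2-T23 and B2m belong to no group of copies summed here. Even so, 29.8% of the 50-base stretches of H2-T23 and 7.28% of its 100-base stretches occur in another gene.

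**Figure D3:**
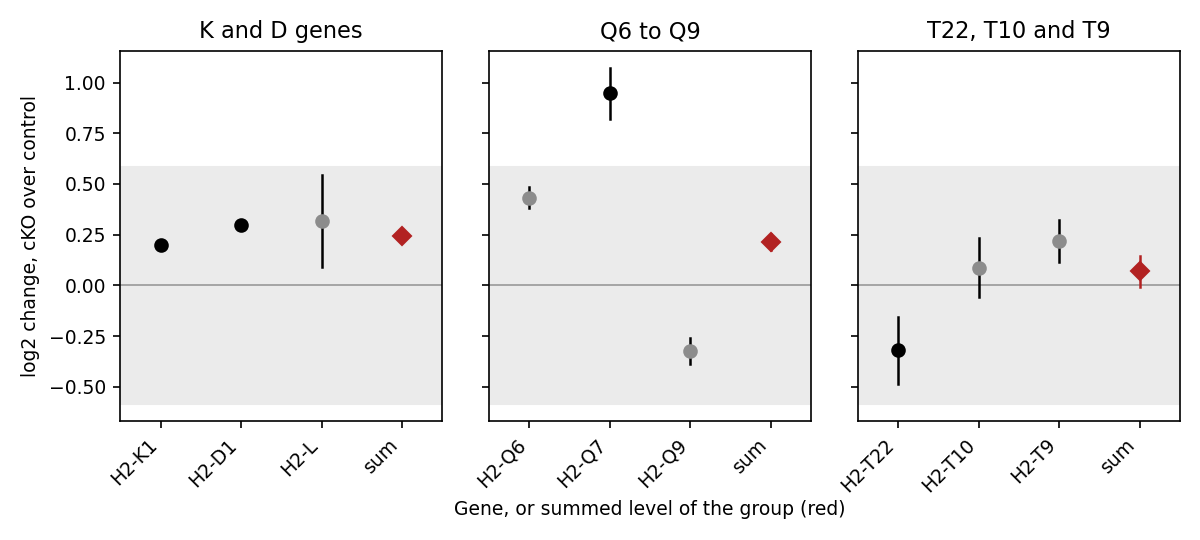
Log2 change of cKO over control for members (black), their listed copies (grey) and the summed level of each group (red diamonds), with 95% counting intervals and a grey band of under 1.5-fold. H2-Q7 at 0.95 and H2-Q9 at -0.32 lie on opposite sides of 0 and the sum of Q6 to Q9 lies at 0.21, while H2-T22 at -0.32 sums with H2-T10 and H2-T9 to 0.07.

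Summed over all heavy chains the libraries were within 1.5-fold. Over the 35 class I heavy chain genes of the tables, of which 28 had reads, there were 80066 control and 81224 cKO reads, a log2 change of 0.25 (0.24 to 0.27). That change ranged from 0.16 by library totals to 0.54 by T cell core scaling. By group the summed changes were 0.24 for the K and D genes, 0.32 for the Q genes, 0.14 (0.09 to 0.18) for the T genes and 0.70 for the M genes. The Q value moved to 0.52 (0.48 to 0.55) without H2-Q9 and to 0.27 without H2-Q6.

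Shares of heavy chain reads within a library need no scaling between libraries. The K and D genes took 66.6% of the control and 66.1% of the cKO reads, the Q genes 20.5% and 21.6%, the T genes 11.8% and 10.8% and the M genes 0.995% and 1.36%. Among members, H2-Q10 went from 0.287% (0.251 to 0.327) to 0.611% (0.558 to 0.667) and H2-M3 from 0.892% (0.828 to 0.959) to 1.19% (1.11 to 1.26), and these intervals did not overlap. H2-Q7 took 1.04% and 1.68%, whereas H2-Q7 with H2-Q9 took 6.87% (6.70 to 7.05) and 5.59% (5.43 to 5.75), and H2-T22 took 0.925% and 0.622%. H2-K1 took 36.3% (36.0 to 36.6) and 35.0% (34.6 to 35.3) and H2-D1 stood at 29.8% (29.5 to 30.2) and 30.8% (30.5 to 31.1). The intervals of H2-Q7, H2-T22, H2-K1 and H2-D1 did not overlap between the libraries either. H2-T23 took 5.05% (4.90 to 5.21) and 4.91% (4.77 to 5.07), with overlapping intervals. Against the light chain, there were 334 heavy chain reads per 100 B2m reads in the control and 392 in the cKO library, a log2 change of 0.23 (0.20 to 0.26), and 221 and 258 for H2-K1 with H2-D1. These ratios of reads are not corrected for transcript length and do not count transcripts. The longest coding transcript has 860 bases for B2m and 1619 for H2-K1.

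**Figure D4:**
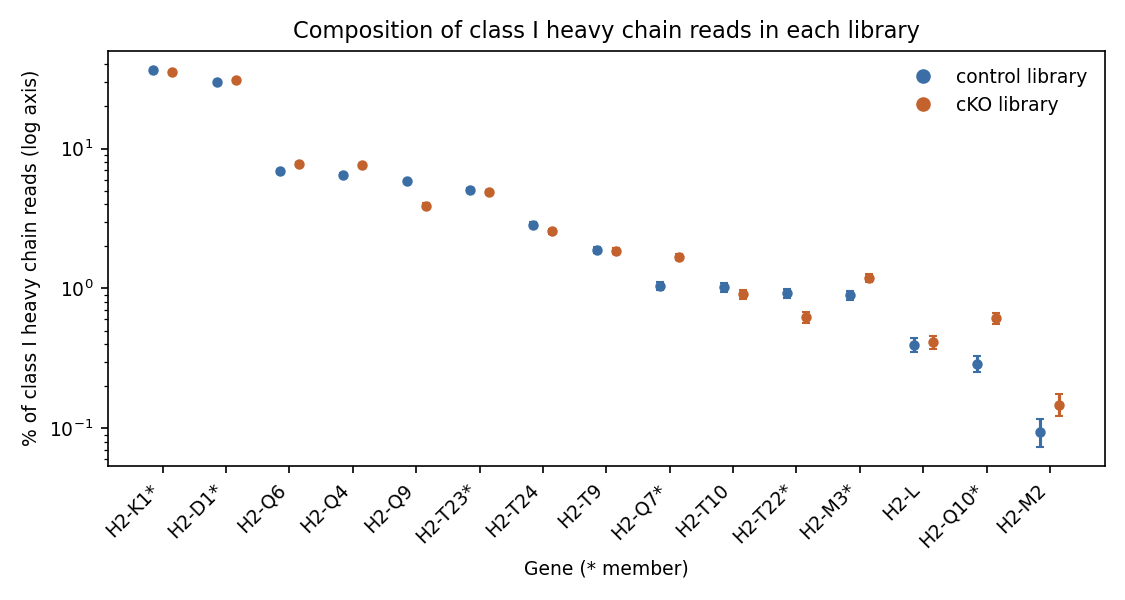
Percent of all class I heavy chain reads of a library (log axis) taken by each of the 15 heavy chain genes with over 150 reads in both libraries together, with exact 95% binomial intervals, control in blue and cKO in orange, and members marked by an asterisk. In the cKO library H2-K1 sits slightly lower and H2-D1 slightly higher. H2-Q10, H2-Q7 and H2-M3 sit higher and H2-T22 and H2-Q9 lower in that library.

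Besides the members, 26 further heavy chain genes were in the tables and 19 passed the filter, of which 5 were higher and 3 lower by 1.5-fold or more, with a median of 0.22, beside 17.2% of all genes higher and 24.2% lower. All 3 lower genes, H2-M10.5, Gm8909 and Gm10499, and 2 of the higher, H2-M10.2 and H2-M11, were at 0 reads in 1 library and passed the filter through the other. They are named after their values were seen. H2-Q4 had 5185 and 6148 reads and a change of 0.48 (0.43 to 0.53), and H2-T24 had 2287 and 2073 reads and a change of 0.09 (0.01 to 0.18). Gm6034 had 18 and 29 reads (0.88), Gm7030 54 and 37 (-0.31), Gm11127 16 and 11 (-0.29), and Gm8909 30 and 0, at least 8.51-fold lower against the floor of 3 reads. Of the 387 genes with 30 to 39 control reads, 66 (17.1%) were at 0 in the cKO library.

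The class II genes, 9 of which lie between H2-K1 and H2-D1 on chromosome 17 in the plot by position, differed more than most members. That list of 11 adds the invariant chain Cd74 and the transactivator Ciita. All 11 genes were higher by 1.5-fold or more in the cKO library, beside 17.2% of all genes. Their median was 1.56 and their summed reads were 32366 and 78708. Cd74, the invariant chain, had 15590 and 37862 reads and a change of 1.51 (1.49 to 1.54), H2-Ab1 1.38, H2-Aa 1.62 and H2-Eb1 1.46. The lowest of the 11, at 1.03, exceeded the change of every member except H2-Q10 on the deposited scale. B cell markers (12 of 12 at least 1.5-fold higher, median 2.38, with Pax5 at 3.10, Cd79a at 2.32 and Ms4a1 at 1.94 the most abundant) and macrophage markers (16 of 16, median 2.21, with Lyz2 at 0.84, Apoe at 2.16 and Csf1r at 1.15 the most abundant) were also higher in the cKO library. Of 8 dendritic cell markers 2 were higher and 0 lower by 1.5-fold or more. Their median was 0.24, with 6 above 0 and 2 below. The part of these cell types in the class I values was not tested.

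**Figure D5:**
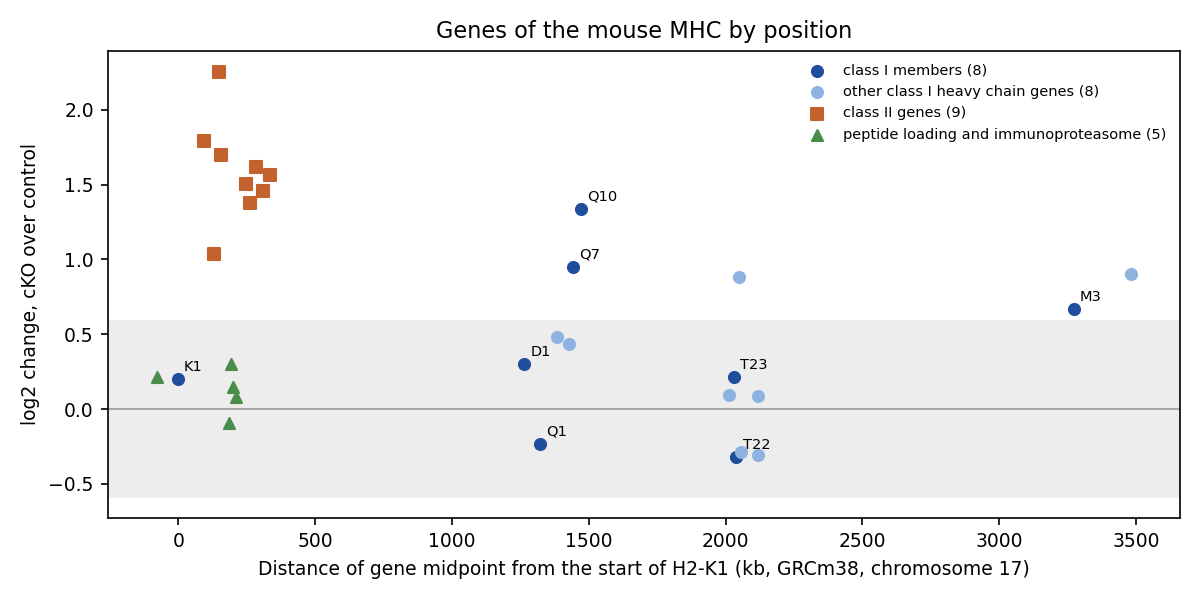
Log2 change of cKO over control against the distance of each gene's midpoint from the start of H2-K1 on chromosome 17 (kb, GRCm38), for genes whose level averaged 10 or more and that had reads in both libraries, with a grey band of under 1.5-fold. The 9 class II genes (orange) all lie above 1.0, the 5 peptide loading genes (green), of which Tapbp lies on the other side of H2-K1, lie inside the band, and of the 8 members (dark blue) H2-Q7, H2-Q10 and H2-M3 lie above it.

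The genes that load peptide on class I stayed within 1.5-fold. None of 14 peptide loading and immunoproteasome genes differed by 1.5-fold or more, beside 17.2% of all genes higher and 24.2% lower. Their median was -0.05. Calr (-0.40), Canx (-0.42) and Pdia3 (-0.19), chaperones of the endoplasmic reticulum that also fold other proteins, lay below 0 on the deposited scale, and Tapbp, which bridges the heavy chain to the peptide transporter, had 5648 and 5569 reads and a change of 0.21 (0.16 to 0.27), the same to 2 decimals as H2-T23.

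Of 14 known regulators of class I transcription, 0 were higher and 2 lower by 1.5-fold or more, beside 17.2% and 24.2% of all genes. The 2 were Rfx5 with 792 and 366 reads and Ezh2 with 2507 and 1395, a pair named after their values were seen. Nlrc5, the class I transactivator, had 6135 and 5369 reads and a change of 0.04 (-0.01 to 0.09). Among 35 interferon-stimulated genes 6 were higher and 2 lower by that much, beside 17.2% and 24.2% of all genes. Their median was 0.12, with 21 above 0 and 14 below, and single changes ran from -1.08 to 1.01. The abundant Parp14 (0.10) and Gbp4 (-0.03) were nearly level.

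The list of receptors drawn up for class I molecules was mostly higher in the cKO library. Of 19 receptor and coreceptor genes, 12 were higher and 0 lower by 1.5-fold or more, with a median of 0.71. Over all genes 17.2% were higher and 24.2% lower. Pirb, an inhibitory receptor of myeloid and B cells, had 3887 and 5424 reads and a change of 0.71 (0.65 to 0.77). The list also holds Lilrb4a (0.55) and the formyl peptide receptor gene Fpr1 (0.49). Binding of their products to class I was not examined, so the count and median are not of class I receptors alone. The CD8 coreceptor genes Cd8a and Cd8b1 had 449 and 1824 and 365 and 1708 reads, changes of 2.25 and 2.46. Markers of CD8 and NK cells, which include Cd8a and Cd8b1 and of which Gzma (0.84), Cd8a and Klrk1 (0.81) were the most abundant, were at least 1.5-fold higher for 7 of 11 genes, with summed reads of 6781 and 11124, and their part in the receptor values was not tested.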

How the data were processed

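RNA-seq of splenic Treg cells was available as 1 table per library. Per the labels, the authors aligned reads to mm10 with TopHat, and the submitters' processing notes name bcl2fastq 2.0, STAR, StringTie and DESeq2 without roles. The read counter, annotation and treatment of multiply mapped reads are not given in the sources used here. The deposited values are a signal, reads divided by 1 size factor per library, and 100% of values were whole multiples of the smallest step within 0.05 read. Reads were recovered and compared at a pseudocount of 1, a minimum mean level of 1 and the study's 1.5-fold threshold. The exact binomial test, added once the unit was known, and edgeR's exact test used genes with 10 or more reads over both libraries, an adjusted p under 0.1 and, for edgeR, assumed coefficients of 0.2 and 0.4. Gene places came from GENCODE vM21, promoters from RefSeq GRCm38.p6. Tools were R 4.3.3, edgeR 4.0.16, DESeq2 1.42.0, Python 3.11.15, pandas 2.3.3, numpy 2.4.6, matplotlib 3.10.9 and scipy 1.17.1, and the steps were tested on simulated data. Members and lists were chosen with earlier results of these data known, and the groups of copies and the measures over B2m and over heavy chain reads after the values were seen. All members were named, other class I genes whose level averaged 10 or more, and the most abundant genes of each list. Of these, 1 gene of a list is not reported here.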

Additional observations from a re-analysis of the deposited data

How the results depend on the processing

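No paired analysis was possible because the comparison has 1 library per genotype. Leaving out a library was not possible for the same reason. Of the alternative values for the summary results, 45 stayed within the tolerance and 23 did not. For single genes and groups these numbers were 72 and 23, and 1 whose counting interval had excluded 0 changed sign. That was H2-Q7 summed with H2-Q9 at -0.045, where the interval of the sum, -0.10 to 0.01, includes 0. H2-Q1 and B2m, whose intervals include 0, also changed sign with scaling, as given above. The summed heavy chain change was 0.23 by TMM, 0.16 by library totals, 0.24 by DESeq2's median of ratios and 0.54 with T cell core genes set equal, and the median of the members was 0.12 by library totals and 0.49 with T cell core genes set equal. That last scaling gave 4547 genes higher and 3247 lower, against 2864 and 4028 on the deposited scale. Members higher numbered 1 at a threshold of 2-fold or an assumed variation of 0.2 and 0 at 0.4. Members lower numbered 0 at a mean level of at least 10, with genes above 0 in both libraries, by the exact binomial test and at an assumed variation of 0.2 or 0.4, since H2-T3 had a mean level of 4.35, 0 cKO reads and under 10 reads in all. All genes higher numbered 1722 at 2-fold, 931 at 0.2 and 229 at 0.4. All genes lower numbered 2035 at a mean level of at least 10, 1904 above 0 in both libraries, 2617 by the exact binomial test, 1488 at 0.2 and 569 at 0.4. Depth limits H2-Q1 and H2-T3 most, and 3 reads correspond to levels of 2.90 and 3.41.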

Other observations

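The class I-like genes outside the H2 complex were described apart from the members. Of 17 listed, 13 passed the filter, 5 were higher and 2 lower by 1.5-fold or more, with a median of 0.56. The higher genes include Azgp1 with 0 and 2 reads, named after its values were seen. Over all genes 17.2% were higher and 24.2% lower. Fcgrt, the neonatal Fc receptor, which pairs with B2m and carries IgG and albumin, had 208 and 373 reads and a change of 1.07 (0.83 to 1.33). Hfe, which pairs with B2m and takes part in iron sensing, had 189 and 248 reads and a change of 0.62 (0.35 to 0.91). The lipid-presenting Cd1d1 had 276 and 348 reads and a change of 0.57 (0.34 to 0.80), and Mr1, which presents vitamin B metabolites to MAIT cells, had 202 and 205 reads and a change of 0.25 (-0.03 to 0.54). Of the NKG2D ligand genes, H60b changed by 0.56 (0.27 to 0.85), Ulbp1 by 0.25 (-0.02 to 0.52) and H60c by -0.11 (-1.10 to 0.83), while Raet1a had 2 and 19 reads, Raet1e 9 and 18 and Raet1c 9 and 4. Procr, the endothelial protein C receptor, had 34 and 0 reads, at least 9.64-fold lower against the floor of 3 reads per library. Of the 387 genes with 30 to 39 control reads, 66 (17.1%) were at 0 in the cKO library.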
